A study of Mus musculus with 5 samples.

Results

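The Jun and Fos genes encode the subunits of AP-1, a transcription factor that works as a dimer. The family was taken as Jun, Junb, Jund, Fos, Fosb, Fosl1 and Fosl2, and its probes were all spots that were not controls and whose transcript accession maps to one of these symbols. This gave 7 genes and 8 probes, of 27937 genes tested (14640 with a symbol, the others as unnamed transcripts or probes) and 55681 probes on the array. Every gene had 1 probe except Fosl2, which had a bright and a dim one.

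Agilent 1-colour arrays measured the RNA of adherent peritoneal macrophages from 3 wild-type mice (numbered 5, 11 and 14) and 2 c-JunΔLysM mice (numbered 1 and 9), male or female, all 8 weeks old and bred on 129/C57Bl6. The c-JunΔLysM mice, called c-Jun-deleted here, carry the genotype cJunfl/fl LysMCre-/+, in which Cre under the myeloid Lyz2 (LysM) locus deletes the floxed Jun alleles. Their source names give c-JunΔMx, another Cre line, and the wild-type controls were littermates, whose Cre and floxed alleles the labels do not describe beyond "wild-type". Lavage cells were cultured overnight and the cells that stuck to the dish were used.

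A Jun protein pairs through its leucine zipper with another Jun protein or with a Fos protein, whereas Fos proteins need a partner and do not pair with each other. Jun, Junb and Jund bind the same DNA element but differ in how strongly they activate it. Jun and Fos are immediate early genes, transcribed within minutes of a stimulus, and in macrophages AP-1 acts on cytokine, matrix protease and prostaglandin synthase genes.

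The start regions of 3 members are shown because the data turn on Jun, Junb of the same subfamily, and Fos, its main partner. Each sequence holds the 250 bases before the transcription start in RefSeq (GRCm38.p6), in the direction of transcription. Capitals mark, in order, CCAAT, TGACATCA and a MEF2 site in Jun, TGACG and CCAAT in Junb, and TGACG and TATAAA in Fos. The Jun region is at chr4:95052223-95052472 (minus strand), the Junb region at chr8:84978749-84978998 (minus strand) and the Fos region at chr12:85473640-85473889 (plus strand).
Jun: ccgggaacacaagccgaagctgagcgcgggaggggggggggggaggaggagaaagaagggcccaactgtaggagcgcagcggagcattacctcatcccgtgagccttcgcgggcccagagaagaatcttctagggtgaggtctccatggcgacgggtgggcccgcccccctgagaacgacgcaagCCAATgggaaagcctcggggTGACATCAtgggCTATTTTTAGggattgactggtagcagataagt
Junb: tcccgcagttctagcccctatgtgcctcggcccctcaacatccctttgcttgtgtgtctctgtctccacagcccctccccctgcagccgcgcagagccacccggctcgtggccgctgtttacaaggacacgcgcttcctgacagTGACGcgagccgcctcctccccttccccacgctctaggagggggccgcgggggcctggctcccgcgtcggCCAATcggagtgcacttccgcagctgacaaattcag
Fos: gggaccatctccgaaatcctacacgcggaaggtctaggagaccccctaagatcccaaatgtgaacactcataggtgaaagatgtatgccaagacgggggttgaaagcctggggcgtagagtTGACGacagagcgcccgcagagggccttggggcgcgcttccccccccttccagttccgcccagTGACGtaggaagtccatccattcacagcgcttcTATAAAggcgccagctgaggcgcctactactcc

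Motifs were searched on both strands of such windows for 6 of the 7 members and for all 32851 windows of the table. TGACATCA, a variant of the AP-1 element through which Jun is known to act on its own gene, was found in the Jun window, from base -45 to -38 before the start, and in 2.93% of all windows. The MEF2 site, the last run of capitals, lay from -33 to -24 in the Jun window and occurs in 0.103% of all windows. TGACG, the first bases of the cyclic AMP response element TGACGTCA and so overlapping with it, lay from -106 to -102 in Junb, from -129 to -125 and from -66 to -62 in Fos and from -60 to -56 in Fosb, and occurs in 17.8% of all windows. CCAAT was found from -65 to -61 in Jun and from -36 to -32 in Junb (33.8% of all windows), and TATAAA from -33 to -28 in Fos (12.4%). The AP-1 element TGACTCA (4.46% of all windows), TGACGTCA itself (1.55%) and a CArG box (1.47%) had no match in the windows of the 6 members. Sites farther than 250 bases before the start were not searched.

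All values below are log2 of the processed signal relative to the array's 75th percentile, so 0 is a signal as bright as that percentile and 1 unit is a doubling. The percentile lay between 437 and 596 signal units, the share of probes well above background on an array was 52.1% to 59.9%, and no spot other than controls was saturated. Wild-type 5 and c-Jun-deleted 1 were on slide 1 and the other 3 arrays on slide 2, so values within each slide are given beside the pooled ones. Wild-type 11 was the one array with the Y-linked Eif2s3y well above background (3.27) and had Xist at -4.53, against -0.04 to 0.74 elsewhere. Summed over 9 B cell markers, the linear signal relative to the percentile was 40.4 to 79.2 in wild-type and 270 to 409 in c-Jun-deleted samples, with all 9 higher there. The sum over 9 general macrophage markers was 1243 to 1662 against 954 to 1089, with 3 higher and 6 lower. One of them, Lyz2, is the locus that carries Cre, and it read 8.70, 8.76 and 9.18 in wild-type samples, 4.46 in c-Jun-deleted 1 and 8.52 in c-Jun-deleted 9. Without Lyz2, a choice made after seeing its values, the sums overlapped, at 809 to 1083 against 723 to 931. That of 10 mesothelial and stromal markers was 2.34 to 6.34 against 2.01 to 2.35, with all 10 lower. Summed over 8 markers of large peritoneal macrophages it was 252 to 447 against 548 to 595, with all 8 higher in the group mean. Wild-type 11 was lowest in this sum. Erythroid markers summed to 0.549 to 1.41 against 10.7 to 23.0 (6 of 7 higher; Alas2 was well above background on 0 of 5 arrays) and T and NK cell markers to 16.1 to 43.8 against 53.6 to 72.1 (6 of 10 higher). The mast cell sum overlapped (41.7 to 122 against 93.3 to 99.5), with all 8 markers higher in the group mean. So did the neutrophil sum (15.2 to 19.4 against 11.46 to 17.87), with 3 of 7 higher. Each other marker was well above background on some array. In a bulk sample a smaller share of a cell type and less RNA per cell cannot be told apart. The part of these markers in the results below, for the members and for every list, was not tested.

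Jun, the subunit that was targeted, was the first question of the comparison. Its probe read 3.21, 3.75 and 3.17 in wild-type 5, 11 and 14, against 2.76 and 2.71 in c-Jun-deleted 1 and 9. Both c-Jun-deleted values lay below every wild-type value, were close to each other, and remained well above background. The wild-type mean was 3.38 ± 0.33 (SD, n = 3) and the c-Jun-deleted mean 2.74 ± 0.03 (SD, n = 2), a 1.56-fold lower signal (log2 difference -0.64, SE 0.23, 95% interval -1.24 to -0.04; limma adjusted p = 0.391, by the Benjamini-Hochberg method over all genes). The difference was -0.45 within slide 1, -0.75 within slide 2 and -0.62 with the slide as a block. Where the probe lies relative to the floxed segment is not given in the sources used here, and its level is therefore no check of the deletion.

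Junb, which shares the zipper and the DNA element with Jun and is a weaker activator on many promoters, was also lower. It read 0.68, 0.39 and 0.79 in wild-type 5, 11 and 14, against 0.15 and 0.13 in c-Jun-deleted 1 and 9. The groups did not overlap, and the nearest pair was wild-type 11 and c-Jun-deleted 1. Its signal was 1.40-fold lower (log2 difference -0.48, SE 0.18, 95% interval -0.94 to -0.02; limma adjusted p = 0.398), and it was at -0.53 within slide 1, -0.46 within slide 2 and -0.49 with the slide as a block. With median centring, which shifts the median difference of all genes from -0.09 to 0.12, the Junb difference was -0.27.

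Jund, the constitutively expressed Jun protein that is tied to restraint of growth and oxidative damage, went the other way. Its probe read 4.40, 4.59 and 4.40 in wild-type 5, 11 and 14, against 4.79 and 5.21 in c-Jun-deleted 1 and 9. Both c-Jun-deleted values were above the wild-type range, which was narrow, and c-Jun-deleted 9 was the highest. The signal was 1.45-fold higher (log2 difference 0.54, SE 0.19, 95% interval 0.04 to 1.03; limma adjusted p = 0.386), with 0.39 within slide 1, 0.72 within slide 2 and 0.57 with the slide as a block. Without c-Jun-deleted 9 the difference was 0.32. The B cell marker sum was likewise higher in both c-Jun-deleted samples and highest in c-Jun-deleted 9. Among the wild-type samples that sum was highest in wild-type 5, and Jund in wild-type 11. The part of cell composition in the Jund difference was not tested.

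**Figure D1:**
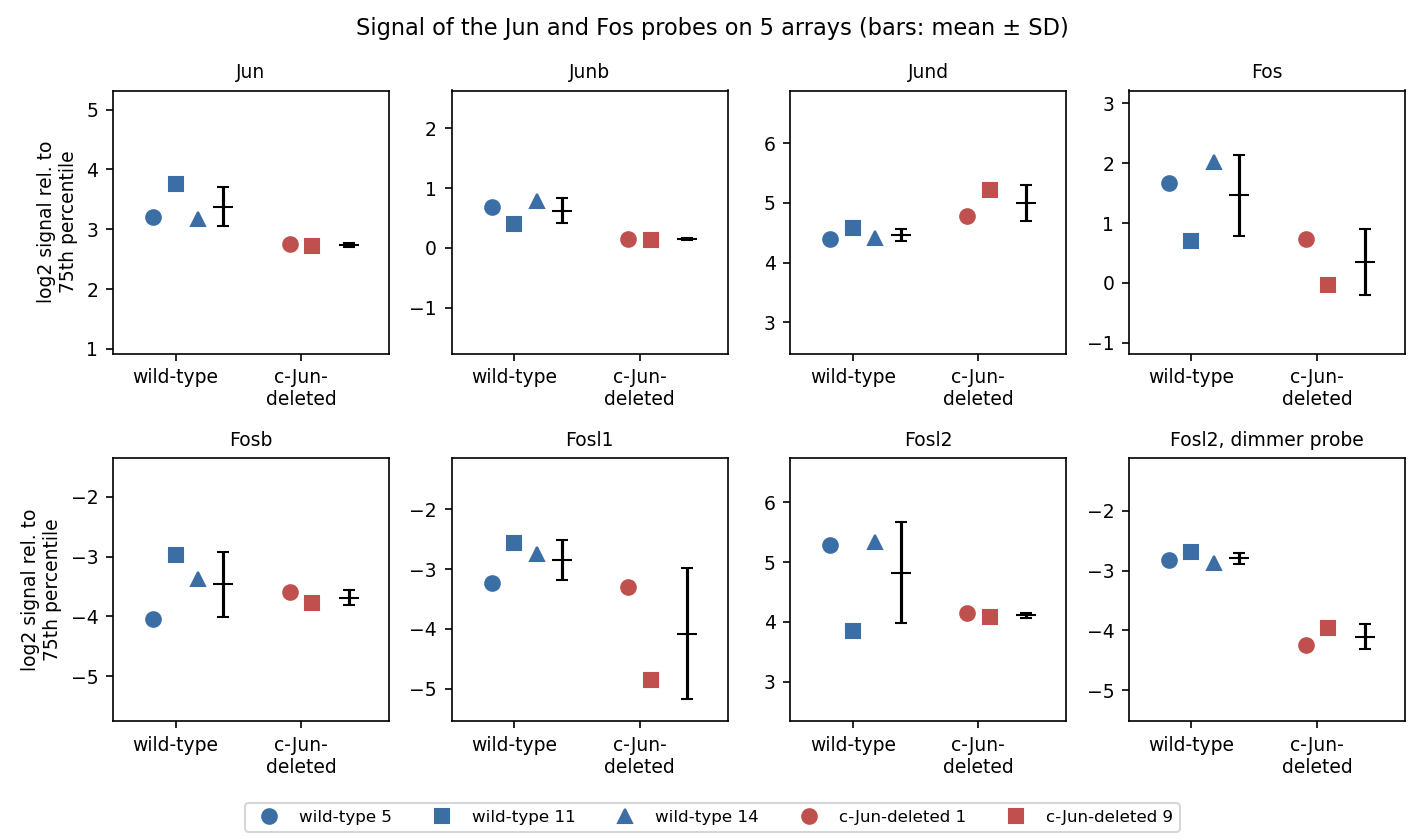
Log2 signal relative to the array's 75th percentile (y axis) for the 8 probes of the 7 genes; each point is an array, shapes give its number, and black bars are the group mean ± SD (3 wild-type, 2 c-Jun-deleted). Jun and Junb lie lower and Jund higher in both c-Jun-deleted samples than in any wild-type sample, and the dimmer Fosl2 probe separates the groups while the brighter one does not.

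Because Jund was higher where Jun was lower, the ratio of each member to Jun was taken within each array, where the scaling of the array cancels. The log2 ratio of the Jund signal to the Jun signal was 1.19, 0.84 and 1.24 in wild-type 5, 11 and 14, against 2.03 and 2.50 in c-Jun-deleted 1 and 9. Since Jund lay above and Jun below the wild-type range, the groups could not overlap in this ratio, and their separation adds no support. A lower Jun alone raises the ratio of any gene that does not change. The ratio was 2.26-fold higher in c-Jun-deleted macrophages (difference 1.18, from a mean of 1.09 ± 0.22 (SD, n = 3) to 2.26 ± 0.33 (SD, n = 2)). With normexp background correction it was 1.27 and with quantile normalization 1.23. The Junb to Jun ratio overlapped between the groups, with -2.53, -3.36 and -2.38 in the 3 wild-type samples against -2.61 and -2.58 in the 2 c-Jun-deleted ones, a difference of 0.16. The same ratio for Fos differed by -0.47, for Fosl1 by -0.59 and for Fosl2 by -0.07, all with overlapping groups, and with normexp the sign turned for Fosl1 (0.21) and Fosl2 (0.12). For Fosb it differed by 0.42 without overlap, but overlapped with quantile normalization. No test was run on these ratios.

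**Figure D2:**
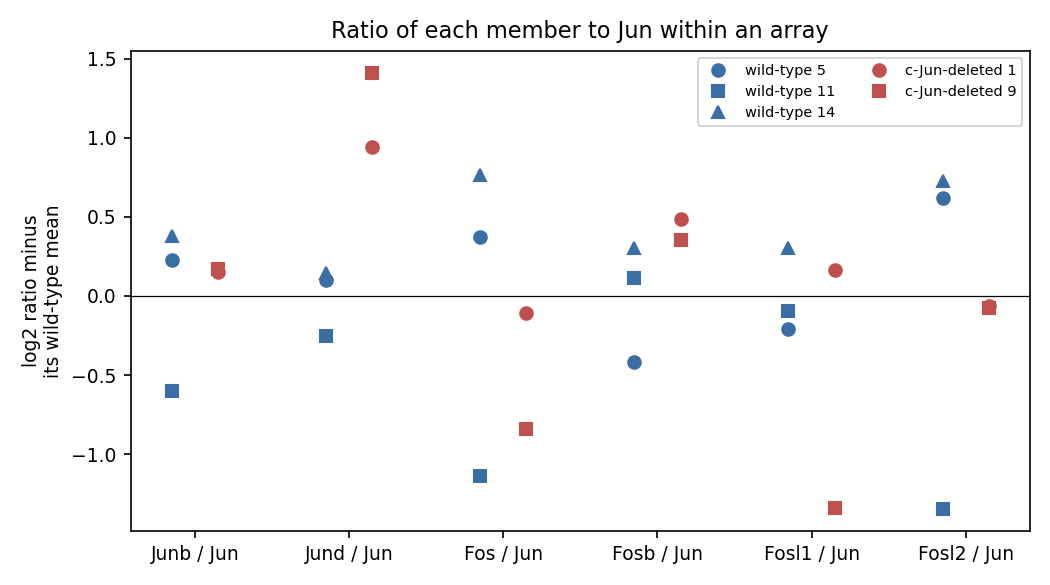
Log2 ratio of each member's signal to that of Jun on the same array, minus the wild-type mean of that ratio (y axis); each point is an array. Jund relative to Jun is the ratio in which both c-Jun-deleted samples stand farthest above the 3 wild-type samples, by 1.18 on average. Jund itself lay above and Jun below the wild-type range, so the groups could not overlap in this ratio.

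Fos, the best known dimer partner of Jun, was measured by 10 spots of the same probe on each array, which gives the error of a spot within an array, though not that of RNA preparation, labelling or hybridization. It read 1.67, 0.70 and 2.02 in wild-type 5, 11 and 14, against 0.73 and -0.04 in c-Jun-deleted 1 and 9. The SD over the spots of an array was between 0.04 and 0.08, whereas the SD over the wild-type samples was 0.68 (n = 3) and that over the c-Jun-deleted samples 0.55 (n = 2). Wild-type 11 was slightly below c-Jun-deleted 1, so the groups overlapped although the spots of each array lay close together. The mean was 2.17-fold lower in c-Jun-deleted macrophages (log2 difference -1.12, SE 0.48, 95% interval -2.36 to 0.13; limma adjusted p = 0.437). It was -0.94 within slide 1, -1.40 within slide 2 and -1.20 with the slide as a block. Without wild-type 11 the difference was -1.50, and without c-Jun-deleted 9 it was -0.73.

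**Figure D3:**
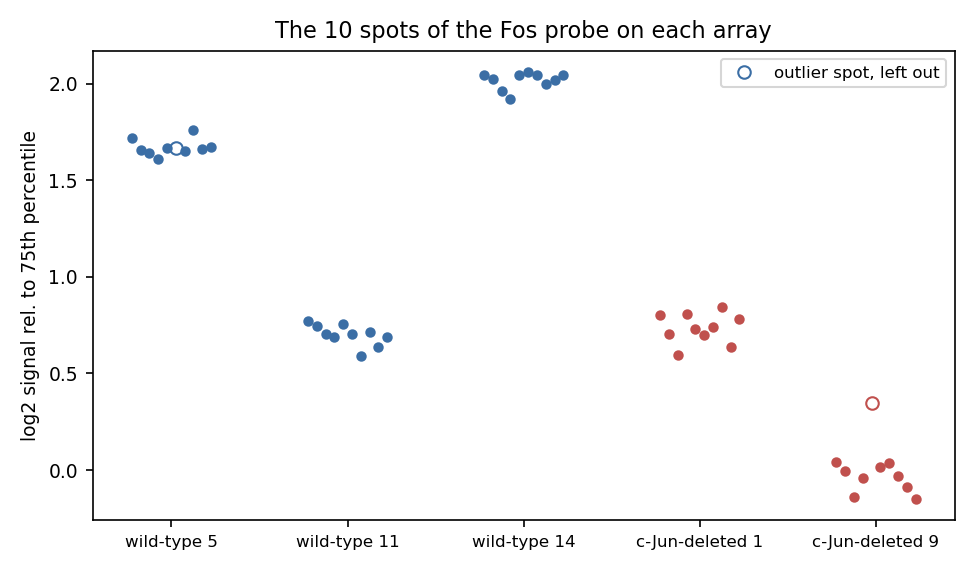
Log2 signal relative to the array's 75th percentile (y axis) of the 10 Fos spots on each of the 5 arrays; open circles are the 2 spots left out for an outlier flag. The spots of an array cluster within an SD of at most 0.08, far less than the distance between wild-type 11 and the other wild-type arrays.

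Fosl2, or Fra-2, a Fos protein that lacks a strong activation domain, was measured by a bright and a dim probe of the same transcript accession. The bright probe read 5.28, 3.86 and 5.34 in wild-type 5, 11 and 14, against 4.14 and 4.09 in c-Jun-deleted 1 and 9. Wild-type 11 lay below both c-Jun-deleted samples, and the other wild-type samples above them. The bright probe was 1.64-fold lower (log2 difference -0.71, SE 0.51, 95% interval -2.04 to 0.62; limma adjusted p = 0.587), with -1.14 within slide 1 and -0.51 within slide 2. Without wild-type 11 it was at -1.20, and without wild-type 14 at -0.45.

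The dim Fosl2 probe, in contrast, read -2.83, -2.69 and -2.87 in wild-type 5, 11 and 14, against -4.25 and -3.96 in c-Jun-deleted 1 and 9. Wild-type 11 sat with the other wild-type samples here, and the groups were separated by far more than the spread within them. This is a signal of 66.8, 70.8 and 65.8 units against 31.4 and 28.1, well above background on all 5 arrays. It was 2.48-fold lower (log2 difference -1.31, SE 0.16, 95% interval -1.73 to -0.89), with an unadjusted p of 0.000561. Over the 32564 probes tested by limma its adjusted p was 0.215, so it did not pass. The difference was -1.42 within slide 1, -1.18 within slide 2 and -1.31 in the authors' deposited table, which holds this probe and no other of the family among its 1709 probes. With normexp background correction, which adds 50 units before the log, it was -0.45. Where on the Fosl2 transcript each probe lies is not given in the sources used here.

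Fosl1, or Fra-1, a Fos protein that is induced late and depends on AP-1 for its own transcription, was dim. It read -3.23, -2.57 and -2.75 in wild-type 5, 11 and 14, against -3.31 and -4.85 in c-Jun-deleted 1 and 9. The c-Jun-deleted values were the lowest, but c-Jun-deleted 1 was close to wild-type 5, and c-Jun-deleted 9, where the probe was not well above background, was far below. Measured on 1 of 2 c-Jun-deleted arrays, the fitted 2.34-fold lower signal (log2 difference -1.23, SE 0.51; limma adjusted p = 0.427) is uncertain in size. Without c-Jun-deleted 9 it was -0.46, within slide 1 -0.08, within slide 2 -2.19 and with normexp -0.41. Fosb, which encodes a further Fos protein, was dim as well, at -4.05, -2.97 and -3.37 in the 3 wild-type samples against -3.60 and -3.77 in the 2 c-Jun-deleted ones. These values overlapped (log2 difference -0.22, SE 0.35, 95% interval -1.13 to 0.69; limma adjusted p = 0.811), and the sign differed between slide 1 (0.45) and slide 2 (-0.60).

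Over the family, 6 of 7 genes were lower in c-Jun-deleted macrophages, where 61.4% of all genes tested were lower. Groups did not overlap for 4 of 7 genes, against 33.5% of all genes: Jun, Junb and Fosl1 lay below the wild-type range (3 of 7, against 20.2%) and Jund above it (1 of 7, against 13.3%). Of these, Fosl1 was barely separated, at -3.31 in c-Jun-deleted 1 against -3.23 in wild-type 5. It was not well above background in c-Jun-deleted 9. With limma 0 of the 7 genes and 0% of all 27937 genes had an adjusted p below 0.05. The unadjusted p was below 0.05 for 3 of 7 genes, against 12.1% of all genes: 2 were lower (Jun and Junb, against 6.53%) and 1 higher (Jund, against 5.62%). Probe by probe, the dim Fosl2 probe was also below this value, where 12.3% of all probes were, and 6.67% of all probes were so and lower. These counts over 7 genes are small, and over all genes the shares are large as well. They also move with the processing. For Jun, Junb and Jund the unadjusted limma p was 0.138, 0.359 and 0.0129 with median centring. In the same order it was 0.0810, 0.0825 and 0.0429 with the slide as a block. With no filter on dim probes it was 0.0611, 0.0804 and 0.0685. With normexp Fos was below 0.05 as well (0.0365).

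**Figure D4:**
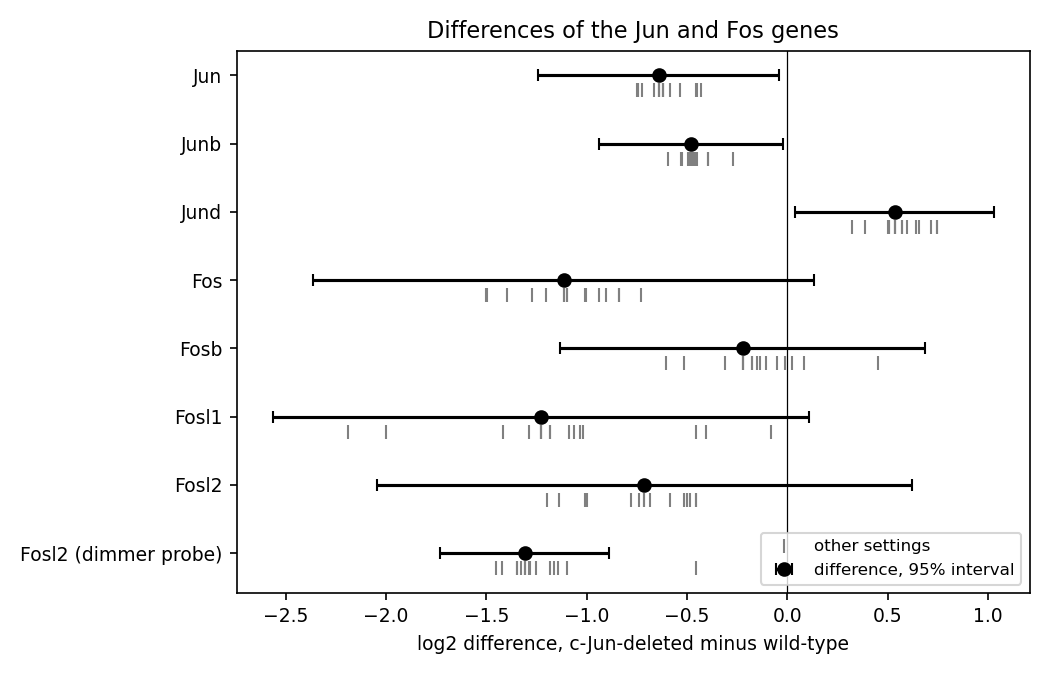
Log2 difference, c-Jun-deleted minus wild-type (x axis), for each gene's brightest probe and for the dimmer Fosl2 probe; points and bars are the limma estimate and its 95% interval, and grey ticks below them are the values under the other settings and with an array left out. The ticks of Fosb lie on both sides of 0, and those of the other probes on one side each.

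The members also differed in how they varied over the 5 arrays. The highest and lowest arrays differed 4.16-fold for Fos and 2.81-fold for the bright Fosl2 probe, against 1.58-fold for Junb, 1.75-fold for Jund, 2.06-fold for Jun and 2.11-fold for Fosb. For Fosl1 no such range is given, since its lowest array was not well above background. After centring each gene on its mean over the arrays, the closest pairs were Fosb and Jun (root mean square difference 0.32), Fos and Fosl2 (0.33) and Jun and Junb (0.34). With Fosl1 left out for the same reason, the farthest pair was Fos and Jund (1.02). In wild-type 11 Fos, the bright Fosl2 probe and Junb were at their lowest among the wild-type arrays, while Jun, Jund, Fosb and Fosl1 were at their highest, on the array that carried male-specific transcripts and the lowest large macrophage marker sum. Unlike the bright probe, the dim Fosl2 probe was also at its highest wild-type value in wild-type 11 (-2.69, against -2.83 and -2.87).

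Among 14639 other named genes, those with centred values closest to Jun over the 5 arrays were Plk4, a centriole duplication kinase (root mean square difference 0.043), Zfp365 (0.045) and Hspb1, a small heat shock protein (0.045). In c-Jun-deleted 1 and 9 Plk4 was dim, at -4.71 and -4.71, and so was Zfp365, at -4.65 and -4.82. Fosl1, at -4.85 in c-Jun-deleted 9, was not well above background there. The likeness of Plk4 and Zfp365 to Jun thus rests partly on values near background. The values of Hspb1 were -0.48, 0.18 and -0.43 in wild-type 5, 11 and 14, against -0.80 and -0.91 in c-Jun-deleted 1 and 9, with the same high wild-type 11 as Jun. Closest to Junb were AB124611 (0.024), Hspa2, a heat shock protein (0.040), and Rhog, a small GTPase (0.043). Closest to Jund were Gramd3 (0.036), Arhgef1 (0.038) and Zcchc7 (0.043). Closest to Fos were Marcksl1 (0.075), Syn2, a synapsin (0.098), and Cep170b (0.103). These likenesses over 5 arrays are a description and were not tested.

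The bZIP proteins that can pair with Jun or Fos, or compete with them, were the next group. Of 29 measured of 31, 6 were higher and 23 lower (79.3% lower, against 61.4% of all genes), with a median difference of -0.16 against -0.09 over all genes. Above the wild-type range lay 3 (10.3%, against 13.3% of all genes) and below it 8 (27.6%, against 20.2%). None passed limma's adjusted threshold, and 6 of 29 lay below an unadjusted p of 0.05 (1 higher, 5 lower), against 12.1% of all genes. Bach2, a repressor of Maf-bound elements that is prominent in B cells, was at -0.72, -0.31 and -1.19 in wild-type 5, 11 and 14, against 0.68 and 1.16 in c-Jun-deleted 1 and 9 (difference 1.66, SE 0.32; adjusted p = 0.227). That gene was high in the samples in which the B cell marker sum was high. The large Maf protein Maf was at 3.48, 3.83 and 3.77 against 3.05 and 2.66 (-0.84, SE 0.21). For the small Maf gene Maff the difference was -1.26 (SE 0.44), with -0.29 within slide 1 and -1.97 within slide 2, and for Jdp2, a repressor that pairs with Jun, it was -0.79 (SE 0.28).

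Kinases that phosphorylate Jun and Fos or lie above them had counts near those of all genes. Of 22 measured of 24, 6 were higher and 16 lower (72.7% lower, against 61.4% of all genes), with a median of -0.13 against -0.09. Above the wild-type range lay 1 (4.55%, against 13.3%) and below it 5 (22.7%, against 20.2%). None passed limma's adjusted threshold, and the unadjusted p was below 0.05 for 1 (higher), against 5.62% of all genes in that direction. Map3k1, which starts a cascade to the Jun kinases, was at 4.28, 4.28 and 4.16 in the 3 wild-type samples against 4.72 and 5.08 in the 2 c-Jun-deleted ones (0.66, SE 0.17; limma adjusted p = 0.293). Map2k4, which activates the Jun kinases, was at -0.41 (SE 0.16), Map3k5 at -0.33 (SE 0.14) and Map2k1, which activates the ERK kinases, at -0.37 (SE 0.19). Averaged over its probes Map3k5 was at 0.10, so its direction depends on the probe.

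Factors that act on the Fos and Jun promoters split about evenly, with 8 of 17 measured of 19 higher and 9 lower (52.9% lower, against 61.4% of all genes) and a median of -0.09, as over all genes. Above the wild-type range lay 2 (11.8%, against 13.3%) and below it 1 (5.88%, against 20.2%). None passed limma's adjusted threshold, and the unadjusted p was below 0.05 for 2 (higher), against 5.62% of all genes in that direction. Mef2b, of the family that binds MEF2 sites such as the one shown in the Jun sequence, was well above background in c-Jun-deleted samples and in 0 of 3 wild-type ones. Mef2b therefore passed the filter on dim probes only through the group where it was high. Its place in the counts above and its p-value are no support for a difference. The wild-type side was set on each array at the lowest signal of any probe well above background, or at the Mef2b signal if higher. So taken, the Mef2b signal was 2.65-fold higher in c-Jun-deleted macrophages (measured means -5.28 in wild-type and -3.40 in c-Jun-deleted samples). This is no lower limit, because the difference was smaller with normexp, as given below. Mef2c, of the same family and known from B cells and macrophages, was at -1.39, -1.13 and -1.91 against -0.88 and -0.39 (0.84, SE 0.30), again beside the high B cell marker sum. Elk3 (-0.65, SE 0.42) and Stat3 (-0.44, SE 0.31) overlapped between the groups. Limma's adjusted p lay between 0.251 and 0.578 for these 4 genes. With normexp the fitted Mef2b difference was 0.49.

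Genes that end or limit Jun and Fos activity had a median of -0.07, with 8 of 23 measured of 24 higher and 15 lower (65.2% lower, against 61.4% of all genes). Above the wild-type range lay 4 (17.4%, against 13.3%) and below it 4 (17.4%, against 20.2%), shares near those of all genes. None passed limma's adjusted threshold, and the unadjusted p was below 0.05 for 3 (higher), against 5.62% of all genes in that direction. The largest difference was that of Dusp10, a phosphatase of the Jun and p38 kinases, which was at -2.85, -2.65 and -3.44 in wild-type 5, 11 and 14, against -0.78 and -1.05 in c-Jun-deleted 1 and 9. The groups lay far apart, a 4.19-fold higher signal (2.07, SE 0.28), yet limma's adjusted p was 0.217. With median centring it was 0.0482, past the threshold, as were 187 of all genes tested. That setting shifts the median difference of all genes from -0.09 to 0.12. Of its genes with an unadjusted p below 0.05, 79.0% were higher. The Dusp10 difference was 2.07 within slide 1, 2.00 within slide 2 and 1.28 with normexp. The phosphatase gene Dusp4 was at 0.81 (SE 0.28) and Fbxw7, part of a ubiquitin ligase for phosphorylated Jun, at 0.39 (SE 0.14), both above the wild-type range. Dusp1, a phosphatase that is itself an immediate early gene, was at 1.26, 1.19 and 1.07 against 0.44 and 0.91 (-0.50, SE 0.20).

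Most genes known as AP-1 targets were lower. Of 33 measured of 37, 5 were higher and 28 lower (84.8% lower, against 61.4% of all genes), and the median difference was -0.53 against -0.09. Below the wild-type range lay 9 (27.3%, against 20.2%) and above it 2 (6.06%, against 13.3%). None passed the adjusted threshold, and 7 of 33 were lower at an unadjusted p below 0.05, against 6.53% of all genes. Cdkn1a, a cell cycle inhibitor, was at 2.81, 3.42 and 2.79 in wild-type 5, 11 and 14, against 2.09 and 1.54 in c-Jun-deleted 1 and 9 (-1.19, SE 0.30; adjusted p = 0.284). Cd44, the hyaluronan receptor, was at 4.13, 4.53 and 4.62 against 3.72 and 3.46 (-0.84, SE 0.21). The collagenase gene Mmp13 was at -0.04, 0.74 and 0.96 against -0.61 and -1.55 (-1.63, SE 0.43), and Hbegf, a growth factor of the EGF family, at -0.93, 0.22 and -0.32 against -1.48 and -2.22 (-1.51, SE 0.42). In each of these 4 genes c-Jun-deleted 9 was the lower of the c-Jun-deleted samples, and within slide 1 Mmp13 was at -0.58 and Hbegf at -0.55, against -2.40 and -2.17 within slide 2. The list's median was -0.24 within slide 1 and -1.004 within slide 2. Without c-Jun-deleted 9 it was -0.23, without c-Jun-deleted 1 -0.80 and without wild-type 5 -0.82. Farthest from the list's direction, and named after its values were seen, was Cdkn2a at 2.75 (SE 1.09; adjusted p = 0.418), with 1.62, -0.37 and -1.95 in the 3 wild-type samples against 2.92 and 2.11 in the 2 c-Jun-deleted ones.

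Other immediate early genes, which respond to the same stimuli as Fos and Jun, had a median of -0.20, with 6 of 21 measured of 25 higher and 15 lower (71.4% lower, against 61.4% of all genes). Above the wild-type range lay 2 (9.52%, against 13.3%) and below it 7 (33.3%, against 20.2%). None passed limma's adjusted threshold, and the unadjusted p was below 0.05 for 4 of 21 (2 higher, 2 lower), against 12.1% of all genes. The orphan nuclear receptor gene Nr4a2 was at 0.12, -0.06 and -0.04 in the 3 wild-type samples against -0.72 and -0.55 in the 2 c-Jun-deleted ones (-0.65, SE 0.15; limma adjusted p = 0.265). Dusp2, an ERK phosphatase, was at 0.91 (SE 0.27) and the transcription factor gene Klf2 at 0.81 (SE 0.31), both above the wild-type range, while Trib1 was at -0.50 (SE 0.18), below it. Under median centring the medians of the partner, kinase, promoter factor, turnover and immediate early lists were 0.05, 0.08, 0.12, 0.14 and 0.01, where that of all genes was 0.12, and the target list stayed at -0.32. The sign of the first 5 medians therefore depends on the scaling, and with quantile normalization that of the promoter factors was 0.04.

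**Figure D5:**
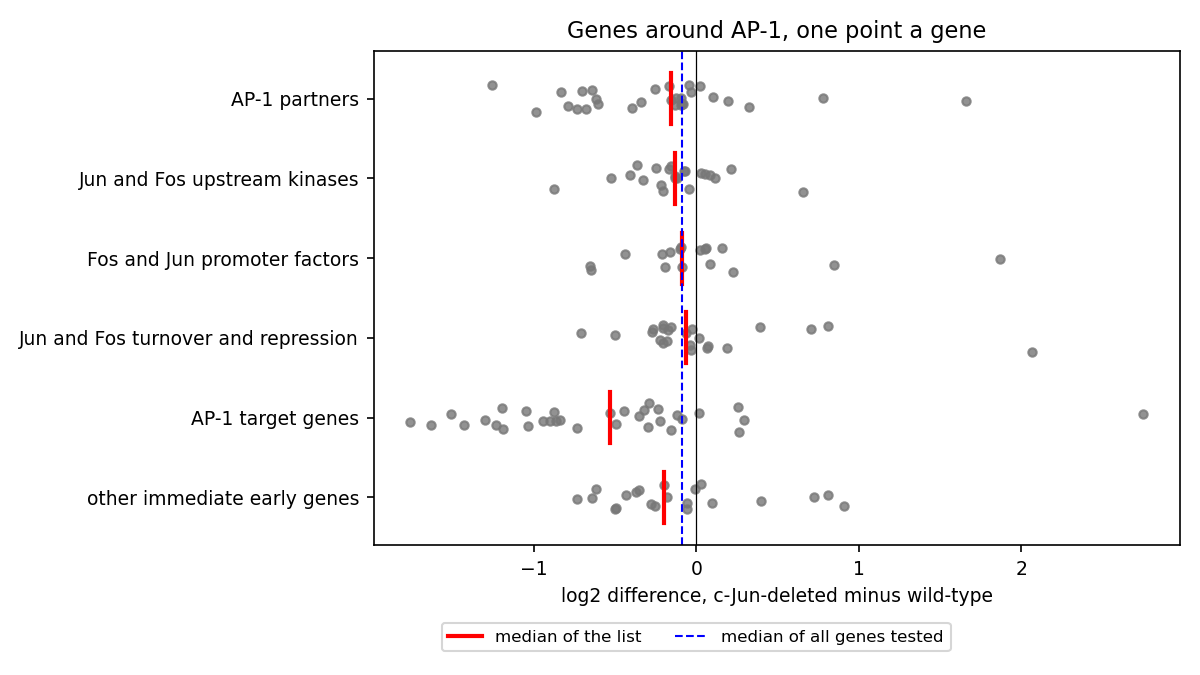
Log2 difference, c-Jun-deleted minus wild-type (x axis), for the measured genes of 6 lists around AP-1; each point is a gene, the red bar is the median of the list and the dashed line the median of all genes tested. The median of the AP-1 target genes, at -0.53, lies farthest from that of all genes, at -0.09.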

How the data were processed

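Per the file headers, spot intensity was read with Feature Extraction 11.5.1.1, which subtracts background and does not scale arrays to each other. The deposited flags (a value of other kind) served as filters. In the authors' deposited table, log2 values scaled to the 75th percentile (as it is named) stand as 1 mean a group; its baseline and centring are unknown, and its wild-type header names 1 array not used here, so only column differences were read. Of its 1709 probes, 1698 had a column difference within 0.01 of the one computed here from the 5 arrays. Control and outlier-flagged spots were left out, spots of a probe averaged on the log2 scale, and probes kept that 2 or more of 5 arrays had well above background (32820, of which 256 lost an array to flags). Accessions were matched without version to RefSeq symbols of GRCm38.p6 (28026 probes matched), while the arrays were designed on mm9. A named gene was its brightest probe; members were also fitted probe by probe. The comparison used limma 3.58.1 (R 4.3.3; 2-sided, no covariate, Benjamini-Hochberg threshold 0.05). The labels number the mice, so each sample was taken as 1 animal. Otherwise the p-values cover no more than the spread between samples, which may be technical, and the number of arrays limits every precision. Normexp (offset 50) used the median spot signal, in place of the mean signal. Named genes were all members, the 4 genes of smallest p on a list where none passed, and the 3 closest profiles of Jun, Junb, Jund and Fos. The members, lists and rule were chosen with earlier results of these data known.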

Additional observations from a re-analysis of the deposited data

How the results depend on the processing

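Under 16 alternatives (other scaling, background correction, filters, array weights, blocks, single slides, and each array left out) the differences of Jun, Junb, Jund, Fos, Fosl1 and both Fosl2 probes kept their direction, and none passed the adjusted threshold. Of the named pathway genes Dusp10 passed it with median centring (2.28). The Jun difference ranged from -0.75 to -0.43 and that of Jund from 0.32 to 0.75. Fosb changed sign with array weights (0.085), within slide 1 (0.45) and among the values with an array left out (-0.52 to 0.023), and Map3k5 when its probes were averaged (0.10). The cause was not tested. The alternatives of the dim Fosl2 probe were added after its values were seen; its adjusted p ranged from 0.0867 with median centring to 0.757 without c-Jun-deleted 9. With limma 0 genes passed the adjusted threshold, 187 did so with median centring and 1 with array weights. The unadjusted p was below 0.05 for 3394 genes, 1835 within slide 2 and 1687 (without c-Jun-deleted 9) to 4505 with an array left out. Without c-Jun-deleted 1 or 9, and within slide 2, the spread comes from the wild-type samples alone and is assumed to hold for the lone c-Jun-deleted sample. Slide 1 alone allows no test. Of these genes 46.3% were higher, 62.0% with quantile normalization and 79.0% with median centring. With the mouse number of the source names as a replicate block the Jun difference was -0.75, that of Fos -0.84 and that of the dim Fosl2 probe -1.35, and 0 genes passed. Deviations of same-numbered samples correlated at -0.07 and 0.19 across genes, against -0.19 and 0.07 for other-numbered ones. Deviations of the 2 c-Jun-deleted samples from their mean mirror each other, so these values cannot decide whether the numbers pair the mice. No pairing was assumed in the main comparison. Signal close to background limits Fosl1, Fosb and the dim Fosl2 probe, and the likeness of Plk4 and Zfp365 to Jun.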
